A study of Mus musculus with 12 samples.

Results

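The 42 genes described here run the cell cycle, and they were read in 12 RNA libraries of mouse myotubes. Myotubes are fused, multinucleated muscle cells, made in culture from myoblasts that have stopped dividing. The genes were taken by symbol from a list chosen with earlier results of these data known. They were matched to the Ensembl identifiers of a table of 20201 genes. All 42 were found: 14 act in DNA replication, 19 in mitosis and 9 in the control of the G1 phase. All 42 also passed the filter on low values (a mean of at least 10 normalized counts), as did 12553 genes in all.

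The cells were primary and carried a floxed Bmal1 allele in both groups. Bmal1, listed as Arntl, encodes the activator of the circadian clock. One group of 6 libraries is labelled wildtype with 21% O2, and the other 6 are labelled Bmal1 knockout with 1% O2 for 6 h. The study's design text gives the knockout as an adenovirus with Cre for 48 h and the control as an empty virus, and it crosses both with both oxygen levels, which would make 4 conditions. The labels thus name 2 groups where the design text has 4. Deletion took place in the dish, in whichever cells took up the virus, and the labels name no animal, culture or batch, so p-values measure only how far these libraries spread, part of which may be technical. Titles 1 to 3 and 7 to 9 carry the wildtype label (replicates 1 to 3 and 4 to 6 here). Titles 4 to 6 and 10 to 12 carry the knockout label (replicates 1 to 3 and 4 to 6). These 4 runs of titles, of 3 libraries each, are described apart below, and no label tells the 2 runs of a genotype from each other.

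A dividing cell first licenses its replication origins: ORC, CDC6 and CDT1 load the ring-shaped MCM helicase onto DNA. CDC45 and the GINS complex switch the helicase on, PCNA clamps the polymerases to the template, and ribonucleotide reductase and thymidylate synthase supply the nucleotides. E2F transcription factors, held back by RB1 until cyclin D and cyclin E kinases act on it, drive most of these genes. The mitotic genes follow later in the cycle, when cyclin B with CDK1 brings the cell into mitosis and aurora and polo kinases build the spindle. Many of them are held silent in resting cells by a repressor complex that sits on a promoter element called the cell cycle genes homology region, or CHR. Differentiated myotubes have left the cycle, a state kept by RB1 and by inhibitors of the cyclin-dependent kinases such as p27 (Cdkn1b) and p57 (Cdkn1c).

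Promoter sequence was not used to choose the genes, and the elements found in it are given as counts, with no test. RefSeq (GRCm38.p6) gave a window of 300 bases around the transcription start for 32 of the 42 genes: 12 replication, 15 mitotic and 5 G1 control genes. An E2F-like element, searched on both strands as TTTCCCGC, TTTGGCGC or TTCCCGCC, the first and last of which can overlap, was found for 7 of the 12 replication genes. It was found for 0 of the 15 mitotic and 0 of the 5 G1 control genes, and in 3.21% of all 32851 windows of that length, or for 7.08% of the 9507 tested genes that had a window. The window of E2f1 (chr2:154569377-154569676, minus strand) lay wholly inside the gene as GENCODE annotates it, with a start at 154569892. For E2f1 these counts therefore do not cover the bases before that start. A CHR, searched as TTTGAA or TTTAAA, was found for 14 of the 15 mitotic genes (all but Bub1), 4 of the 12 replication genes and 2 of the 5 G1 control genes, against 27.6% of all windows and 22.5% of those tested genes. CCAAT, often found near a CHR, was in the windows of 14 mitotic, 9 replication and 3 G1 control genes, against 37.4% of all windows and 43.1% of tested genes. The E-box CACGTG, the letters that the BMAL1 and CLOCK pair is known to bind, was in the windows of Tyms and Cdkn2c, against 7.15% of all windows and 11.9% of tested genes. These matches describe letters in a window and show neither binding nor its absence.

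The stretches below, read 5′ to 3′ on the strand of the gene and lying before the RefSeq start, are shown for Mcm6, Aurka, Cdc20 and Cdkn1b, which lead comparisons that follow, and for Rrm1 and Top2a, the most abundant replication and mitotic genes on the plain scale. Capitals mark the elements, and ATTGG and TTCAAA are CCAAT and TTTGAA on the other strand. The Mcm6 stretch (chr1:128359706-128359825, minus strand) holds 2 E2F-like elements, at -110 and -47 from the start, and 2 CCAAT boxes. The Rrm1 stretch (chr7:102441575-102441694, plus strand) holds 1 E2F-like element at -67 between 2 CCAAT boxes. The Aurka stretch (chr2:172370571-172370680, minus strand) holds 2 CCAAT boxes, at -51 and -19, and its CHR matches lie after the start, at 17 and 32, outside the stretch. Those of Cdc20 (chr4:118437353-118437472, minus strand) and Top2a (chr11:99024190-99024309, minus strand) each hold a CHR, at -18 and -23, with 1 and 3 CCAAT boxes before it. The Cdkn1b stretch (chr6:134920281-134920400, plus strand) has a CCAAT box at -35 and TTTAAA at -15.
Mcm6: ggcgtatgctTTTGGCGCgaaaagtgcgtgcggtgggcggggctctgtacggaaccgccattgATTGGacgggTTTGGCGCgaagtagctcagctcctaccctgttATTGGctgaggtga
Rrm1: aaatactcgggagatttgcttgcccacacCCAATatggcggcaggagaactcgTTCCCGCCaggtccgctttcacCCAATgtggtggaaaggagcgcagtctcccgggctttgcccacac
Aurka: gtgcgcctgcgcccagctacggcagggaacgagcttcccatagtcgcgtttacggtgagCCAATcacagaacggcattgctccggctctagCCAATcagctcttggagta
Cdc20: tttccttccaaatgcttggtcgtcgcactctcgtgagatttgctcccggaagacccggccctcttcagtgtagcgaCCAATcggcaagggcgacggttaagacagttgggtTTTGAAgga
Top2a: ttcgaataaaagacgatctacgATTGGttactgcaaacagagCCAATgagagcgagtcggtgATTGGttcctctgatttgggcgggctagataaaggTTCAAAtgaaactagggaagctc
Cdkn1b: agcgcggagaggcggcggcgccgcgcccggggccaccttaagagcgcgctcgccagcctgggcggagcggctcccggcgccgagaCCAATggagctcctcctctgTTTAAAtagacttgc

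Values are normalized counts, that is, reads divided by 1 size factor per library. Libraries held 6376584 to 12463339 reads, of which 8 very abundant genes took 49.2% to 65.4%. The largest shares were reached by Gm42418 (1.33% to 43.7% of a library) and by a gene without a name (0.436% to 42.3%). Mitochondrial ribosomal RNA and 7SL RNA were also among the 8. The 42 genes together took 7684 to 18968 reads per library. A floor of 3 reads equals 2.12 to 5.85 normalized counts, below every value of the 42 genes. Arntl, the targeted gene, ranged from 133 to 179 under the wildtype label and from 41.7 to 48.6 under the knockout label, so it followed the genotype label. Genes that low oxygen induces did not follow the oxygen label: the summed level of 6 of them (Egln3, Slc2a1, Vegfa, Ankrd37, Pdk1 and Car9) was 1843 to 2385 in titles 1 to 6 and 8772 to 9602 in titles 7 to 12. The libraries are therefore called by their labels and titles, and nothing is attributed to oxygen. Of 10 myotube markers all were measured, and their sum was 17952 to 22465 under the wildtype label and 29428 to 32812 under the knockout label, while 8 fibroblast markers, Col1a1 among them, summed to 43224 to 69854. In bulk RNA fewer cells of a type and less RNA per cell cannot be told apart. Wildtype replicate 2 stood apart, with 29.6% of genes at 0 against 13.0% to 21.9% elsewhere.

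Per kilobase of exon, Pcna was the most abundant of the 42 (264 normalized counts per kilobase), followed by Ccne1, which encodes cyclin E1 (194), and Mcm6 (163). The least abundant were Cenpf, a centromere protein gene, Kif23, the kinesin of the midzone, and Cdc6 (11.3, 10.1 and 6.90 per kilobase). Among the mitotic genes Top2a led, the gene of the topoisomerase that untangles sister chromatids (100.05 per kilobase). On the plain scale the 14 replication genes summed to 3986 to 4954 normalized counts per library, the 19 mitotic genes to 3199 to 6318, and the 9 G1 control genes to 3858 to 5949. By run, the mitotic sum was 4639 ± 557 in titles 1 to 3, 6032 ± 249 in titles 4 to 6, 3377 ± 160.0 in titles 7 to 9 and 5141 ± 107 in titles 10 to 12 (SD, n = 3 each). The replication sum was 4858 ± 83.5, 4370 ± 62.4, 4797 ± 43.3 and 3996 ± 9.40 in the same order. The mitotic sum was thus higher in either knockout run than in the wildtype run beside it. It was also lower in the later run of each label. The replication sum was lower in both knockout runs, and much of that drop lay in Mcm6. The mean of Mcm6 was 976 in titles 1 to 3 and 570 in titles 4 to 6. In titles 7 to 9 it was 970, and in titles 10 to 12 it was 524. The median log2 difference of the 14 genes between the labels was -0.05 in titles 1 to 6 and -0.15 in titles 7 to 12.

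**Figure D1:**
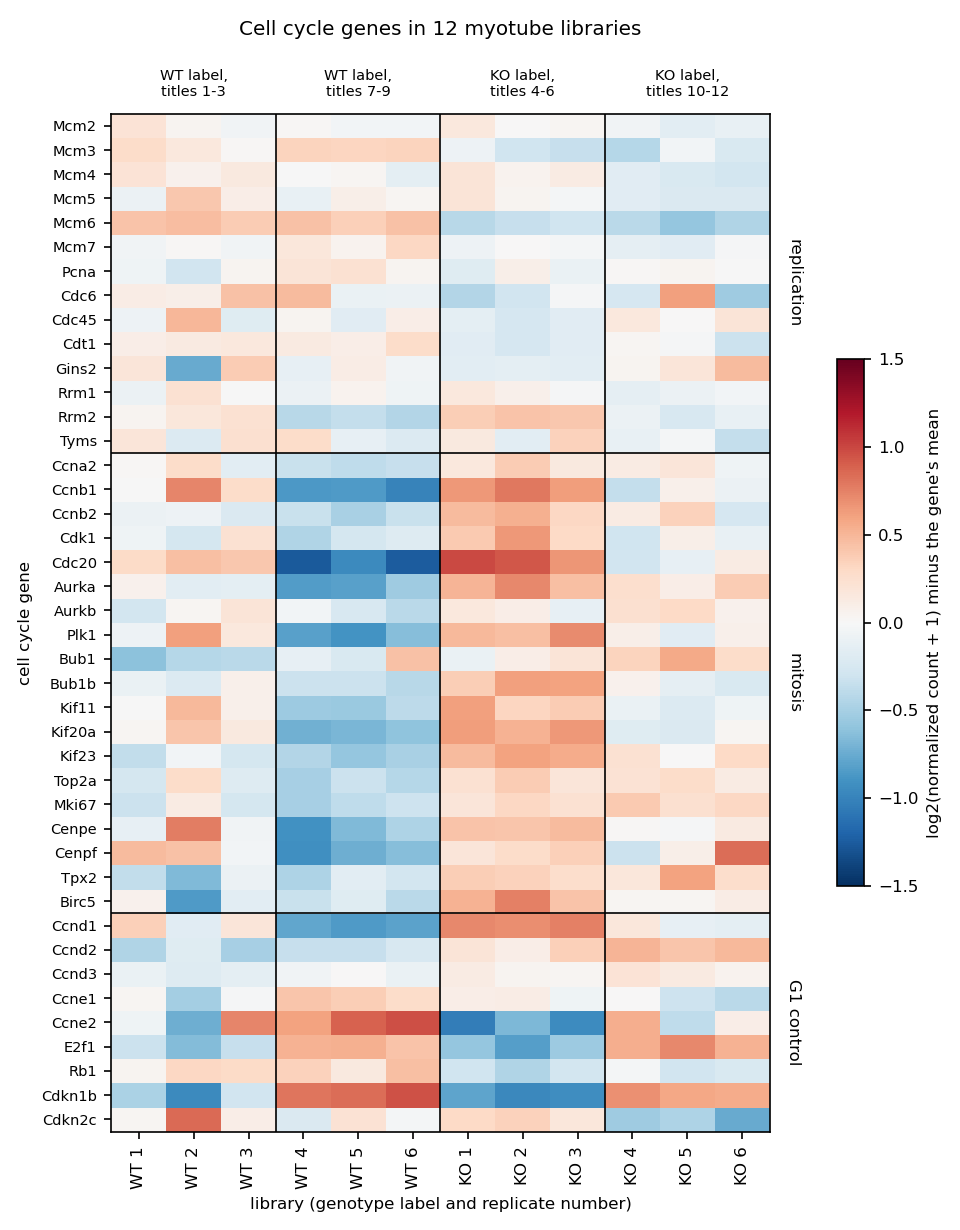
Level of each of the 42 genes (rows) in each of the 12 libraries (columns, grouped by label and title run), as log2(normalized count + 1) minus the mean of the gene over all libraries; red is above and blue below that mean. Mcm6 is blue in all 6 knockout columns, most mitotic rows are reddest in titles 4 to 6 and bluest in titles 7 to 9, and Cdkn1b and E2f1 turn from blue in titles 1 to 6 to red in titles 7 to 12.

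The first comparison set the 6 libraries labelled knockout against the 6 labelled wildtype. The genes called differed by stage. Of the 19 mitotic genes, 7 were higher under the knockout label and 0 lower, and the log2 difference was above 0 for all 19 (median 0.48). Of the 14 replication genes, 0 were higher and 3 lower, with a median of -0.08. The test was limma on log2(normalized count + 1), two-sided, with p-values adjusted by Benjamini-Hochberg over 12553 genes and a call at 0.05 or less. In this comparison 10.2% of all genes tested were called higher and 9.07% lower (1277 and 1139 genes), and their median was -0.0015. For the 2 counts of 0, no gene had an unadjusted p of 0.05 or less in that direction, and edgeR and DESeq2 called none either. With the 8 abundant genes left out and the rest rescaled, the median of all genes moved to -0.17, the calls over all genes became 613 higher and 2201 lower, and those among the 42 genes went from 9 higher and 4 lower to 5 and 6, with 4 mitotic genes higher and 0 lower. Set against the median of all genes, the mitotic median was 0.48 and the replication median -0.08 on either scale.

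Mcm6, a subunit of the MCM helicase (chromosome 1, 128331590 to 128359664, minus strand, GRCm38), differed most among the replication genes. It stood at 981, 1002, 946, 988, 933 and 989 in wildtype replicates 1 to 6 and at 544, 571, 594, 552, 489 and 532 in knockout replicates 1 to 6. Every knockout library lay below every wildtype library. The log2 difference was -0.83 (SE 0.06, limma adjusted p = 1.09e-06), 1.78-fold lower.

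Mcm3, a second helicase subunit, had a lowest, median and highest value of 344, 418 and 428 under the wildtype label and 252, 282 and 329 under the knockout label, with no overlap. Its log2 difference was -0.48 (SE 0.09, limma adjusted p = 0.00179). Cdt1, which loads the helicase, went from 153, 158 and 173 to 114, 127 and 146, again with no overlap. Its difference of -0.30 (SE 0.09, limma adjusted p = 0.0242) did not pass without wildtype replicate 6 or without knockout replicate 6 (highest adjusted p = 0.0577). In all, 3 of the 14 replication genes had groups that did not overlap, each lower under the knockout label, against 5.38% of all genes.

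The other helicase subunits did not pass the test. Mcm2, Mcm4, Mcm5 and Mcm7 had log2 differences of -0.04, -0.10, -0.14 and -0.15 (adjusted p = 0.747, 0.550, 0.400 and 0.233 by limma), so 2 of the 6 subunits of the ring passed. The most abundant replication gene on the plain scale was Rrm1, the large subunit of ribonucleotide reductase. It stood at 752, 782 and 940 (lowest, median and highest) under the wildtype label and at 727, 783 and 894 under the knockout label, and the groups overlapped almost entirely (log2 difference -0.02, adjusted p = 0.914). Pcna, the sliding clamp, differed by -0.05 and Cdc45, the helicase activator, by -0.07 (adjusted p = 0.751 and 0.784). The remaining replication genes were Cdc6 and Gins2, Tyms, which encodes thymidylate synthase, and Rrm2, the small reductase subunit. They had differences of -0.30, 0.08, -0.06 and 0.26, none past the test in this fit.

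**Figure D2:**
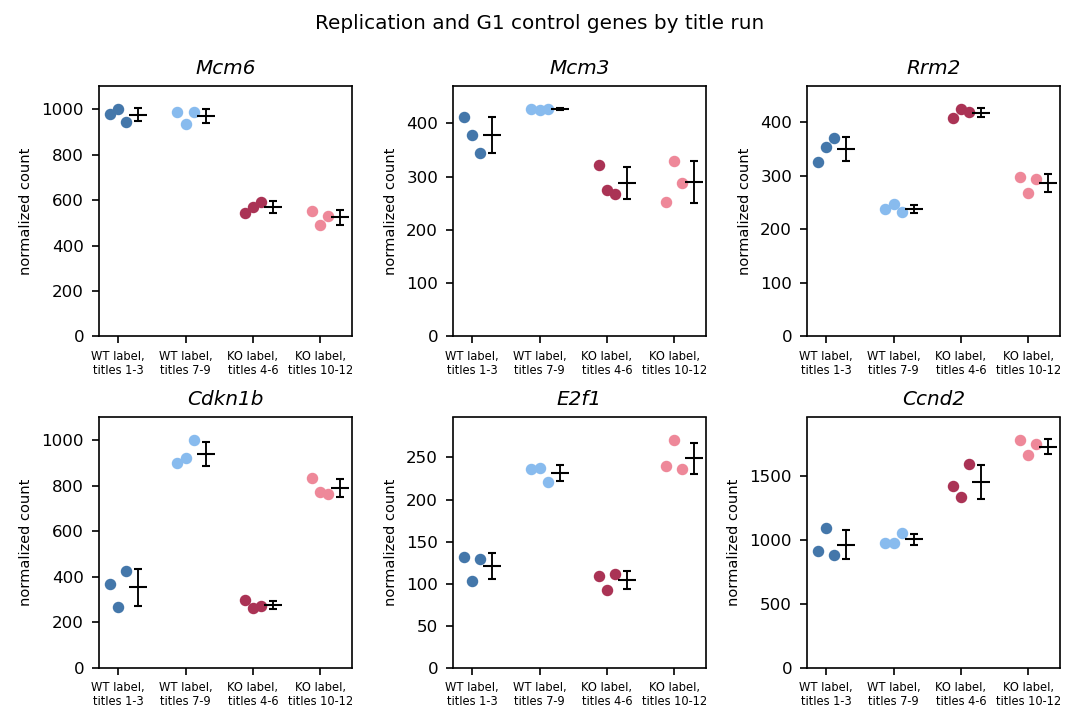
Normalized counts (y axis, from 0) of 3 replication genes and 3 G1 control genes in each library, by label and title run (x axis); points are libraries and the bar beside them is the mean ± SD of the 3. Mcm6 lies at 933 to 1002 in both wildtype runs and at 489 to 594 in both knockout runs, whereas Cdkn1b and E2f1 separate titles 7 to 12 from titles 1 to 6.

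Among the mitotic genes, Aurka encodes the aurora A kinase of the spindle poles, and Tpx2 its activator on spindle microtubules. Aurka stood at 67.9, 97.1 and 129 (lowest, median and highest) under the wildtype label and at 132, 164 and 203 under the knockout label, so the groups did not overlap. The log2 difference was 0.81 (SE 0.17, limma adjusted p = 0.00409). Tpx2 went from 215, 272 and 319 to 384, 420 and 518, also with no overlap, a difference of 0.67 (SE 0.10, adjusted p = 0.000496). Kinase and activator thus stood higher together.

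Kif23, the kinesin of the central spindle at cell division, stood at 50.9, 57.6 and 74.3 under the wildtype label and at 76.6, 100.4 and 117 under the knockout label. The difference of 0.72 (SE 0.13, limma adjusted p = 0.0018) came without overlap, by a narrow margin between wildtype replicate 2 and knockout replicate 5. Mki67, the gene of the proliferation marker Ki-67, which coats mitotic chromosomes, went from 562, 638 and 861 to 901, 959 and 1043 (0.55, SE 0.09, adjusted p = 0.000793). These 4 genes, Aurka, Tpx2, Kif23 and Mki67, were the mitotic genes with no overlap between the groups, 4 of 19 against 7.07% of all genes.

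Top2a stood at 623, 723 and 1069 under the wildtype label and at 963, 1033 and 1153 under the knockout label. The groups overlapped through wildtype replicate 2 alone. Its difference was 0.48 (SE 0.11, limma adjusted p = 0.00868), and the call was lost with quantile normalization and with the abundant genes left out (highest adjusted p = 0.12). Ccnb2, cyclin B2, went from 84.9, 98.9 and 113 to 100.1, 150.1 and 173 (0.51, SE 0.14, adjusted p = 0.0171). Birc5, which encodes survivin of the chromosomal passenger complex, went from 49.6, 75.4 and 94.2 to 91.6, 109 and 153 (0.62, SE 0.17, adjusted p = 0.0204). In both the lowest knockout library lay within the wildtype range, and both calls were lost with the abundant genes left out (adjusted p = 0.126 and 0.0903).

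The other 12 mitotic genes did not pass in this fit, and several of them differed as much between the runs of a label as between the labels. Cdc20, the activator of the anaphase-promoting complex, had a difference of 0.77 with an SE of 0.36 (adjusted p = 0.164), and Ccnb1, cyclin B1, one of 0.57 with an SE of 0.31 (adjusted p = 0.233). Among these 12 the differences ranged from 0.25 for Aurkb, the kinase of the passenger complex, to 0.77 for Cdc20. With the pair of runs (titles 1 to 6 or 7 to 12) as a term in the fit, 17 of the 19 mitotic genes were called higher and 0 lower. In that fit 3785 of all genes were called. With library weights, estimated without a term for the runs, it was also 17 and 0, where 3381 of all genes were called. The weights moved the differences: the mitotic median went from 0.48 to 0.62, and Cdc20 from 0.77 to 1.24. Within the 2 pairs of runs Cdc20 differed by 0.48 and 1.06, so the weighted fit did not keep runs apart from labels. In the fit of 2 groups without wildtype replicate 2, 10 mitotic genes were higher and 0 lower. Over all genes the calls there went from 1277 higher and 1139 lower to 1479 and 1254.

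**Figure D3:**
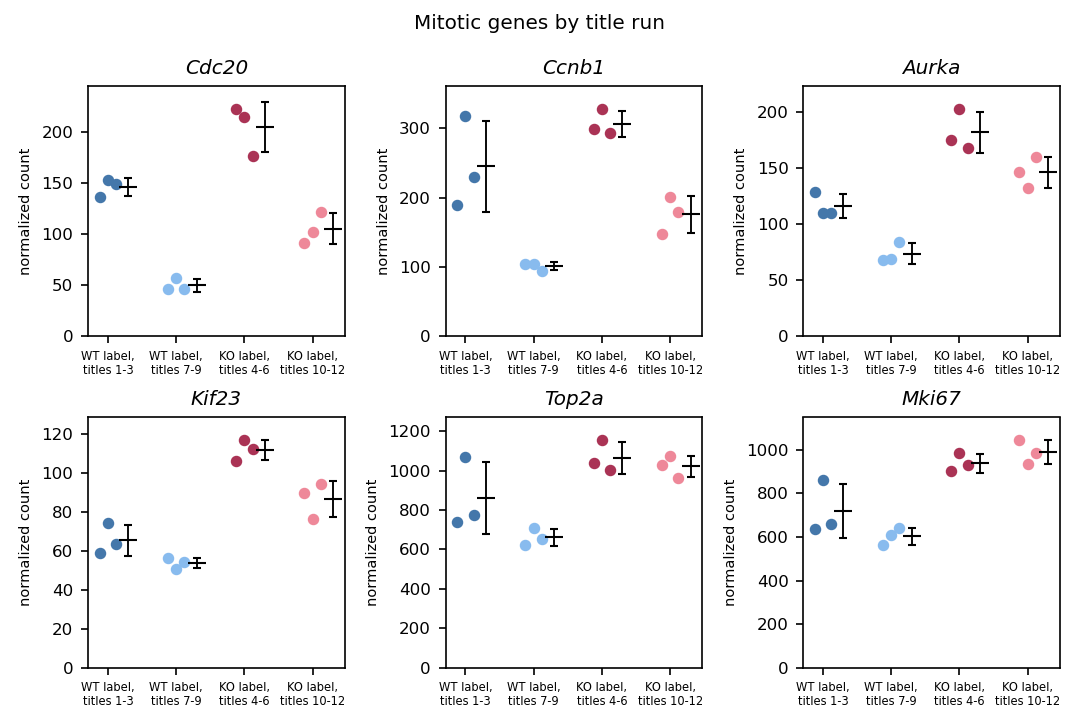
Normalized counts (y axis, from 0) of 6 mitotic genes in each library, by label and title run (x axis); points are libraries and the bar beside them is the mean ± SD of the 3. Aurka and Kif23 lie higher in both knockout runs than in both wildtype runs, while Cdc20 and Ccnb1 are also lower in the later run of each label, where Cdc20 falls to 46.0 to 57.3 in titles 7 to 9.

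Of the 9 G1 control genes 2 were higher and 1 lower, against 10.2% and 9.07% of all genes, the latter near its share. The groups of all 3 did not overlap, where 7.07% of all genes lay wholly higher and 5.38% wholly lower. Ccnd2, cyclin D2, was the most abundant of the 9 on the plain scale. It stood at 882, 977 and 1095 (lowest, median and highest) under the wildtype label and at 1334, 1626 and 1776 under the knockout label. Its log2 difference was 0.69 (SE 0.08, limma adjusted p = 8.77e-05). Ccnd3, cyclin D3, which is known to accumulate in differentiating muscle, went from 886, 945 and 1010 to 1028, 1074 and 1162 (0.19, SE 0.06, adjusted p = 0.0257). The Ccnd3 call did not hold on leaving out wildtype replicate 3 or knockout replicate 1, 4 or 5 (highest adjusted p = 0.057), nor with quantile normalization or the abundant genes left out (highest adjusted p = 0.757). Rb1, the retinoblastoma protein that binds E2F, was the gene that fell. It stood at 252, 301 and 333 under the wildtype label and at 178, 201 and 240 under the knockout label (-0.53, SE 0.09, adjusted p = 0.00116).

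Ccnd1, cyclin D1, had as large a difference as Ccnd2, 0.69, with an SE of 0.25, and did not pass (adjusted p = 0.0688). Ccne2, cyclin E2, had the largest difference of the 9 in size, -0.80 with an SE of 0.32 (adjusted p = 0.106). It was uneven within runs: titles 1 to 3 read 355, 225 and 620, and titles 10 to 12 read 544, 286 and 400. Ccne1, E2f1, Cdkn1b and Cdkn2c, the last 2 encoding the kinase inhibitors p27 and p18, differed by -0.19, -0.05, -0.29 and -0.31, none past the test. With the pair of runs as a term, 3 of the 9 were higher and 3 lower, where 2000 and 1785 of all 12553 genes were. Ccnd1 (limma adjusted p = 5.32e-05), Ccne2 (adjusted p = 0.0102) and Cdkn1b (adjusted p = 0.0301) joined the 3 above. With library weights it was also 3 and 3, where 1812 and 1569 of all genes were called. There Ccne1 (limma adjusted p = 0.0471) stood in place of Cdkn1b (adjusted p = 0.111). The weights, estimated without a term for the runs, moved the differences too. That of Cdkn1b went to -0.82, beyond its -0.33 and -0.25 within the 2 pairs of runs.

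Cell type markers moved with the labels too, and their part in these differences was not tested. Of the 10 myotube markers, 5 were higher under the knockout label and 3 lower, against 10.2% and 9.07% of all genes. The log2 difference was above 0 for 5 of the 10 and below 0 for 5, so the higher sum does not describe every marker. Of 6 markers of undifferentiated myoblasts, 0 were higher and 3 lower (Myf5, Msc and Myod1), and their sum was 1097 to 1359 under the wildtype label and 963 to 1214 under the knockout label. Of 8 fibroblast markers 1 was higher and 1 lower. The 5 endothelial markers summed to 889 to 1009 and 1198 to 1471, with 2 higher, and the 5 leukocyte markers to 20.5 to 32.1 and 27.3 to 59.1, with 1 of the 5 abundant enough to be tested and 1 at or under the floor in every library.

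The labelled groups were then compared within each pair of runs, in a fit with 4 runs of 3 libraries that shares 1 estimate of the spread. These comparisons use the same libraries as the one above, whereas the 2 pairs share none with each other. In titles 1 to 6, 11 of 19 mitotic genes were higher in the libraries labelled knockout and 0 lower (median 0.40), against 10.8% of all genes higher and 7.97% lower. In titles 7 to 12, 12 of 19 were higher and 0 lower (median 0.63), against 8.84% and 7.64%. For both counts of 0, no mitotic gene had an unadjusted p of 0.05 or less in that direction, and edgeR and DESeq2 called none. Of the 14 replication genes, 1 was higher and 2 lower in titles 1 to 6 (median -0.05), and 1 was higher and 3 lower in titles 7 to 12 (median -0.15). Of the G1 control genes, 3 were higher and 1 lower, and 2 higher and 2 lower.

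**Figure D4:**
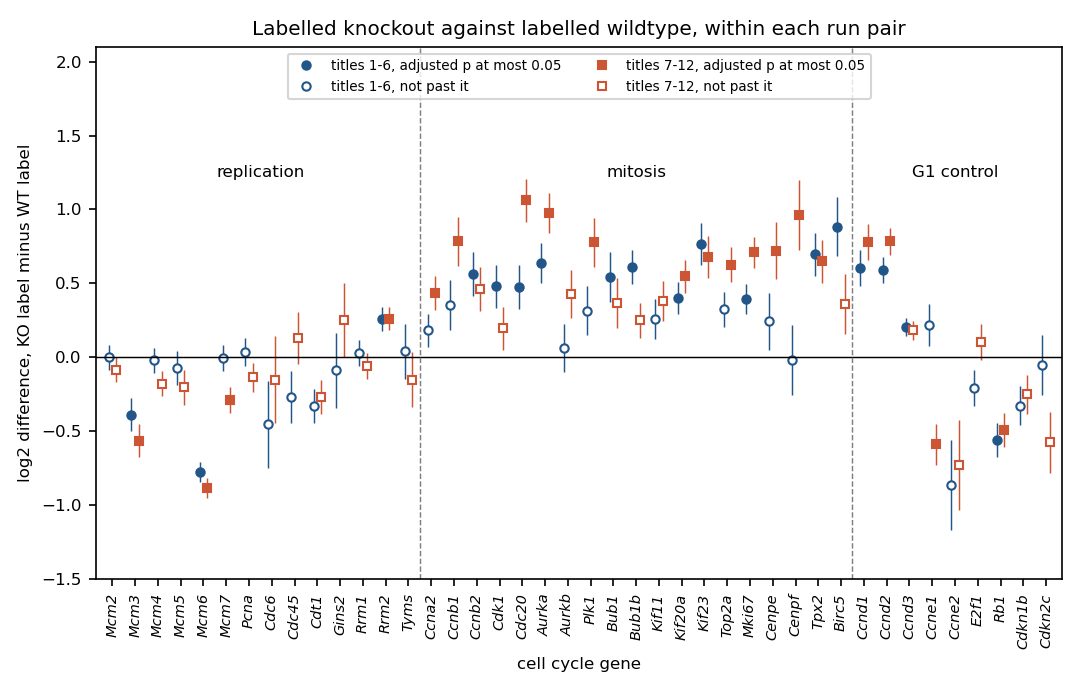
Log2 difference of each of the 42 genes (x axis) between the libraries labelled knockout and wildtype (y axis), within titles 1 to 6 (circles) and within titles 7 to 12 (squares); bars are standard errors and filled symbols have a limma adjusted p of 0.05 or less. All 19 mitotic genes are above 0 in titles 7 to 12, and 18 in titles 1 to 6 (Cenpf is at -0.02), while Mcm3, Mcm6 and Rb1 are filled and below 0 in both.

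Called in both pairs and higher were 6 mitotic genes (Cdc20, Aurka, Kif20a, Kif23, Mki67 and Tpx2), with Rrm2, Ccnd1 and Ccnd2, which makes 9 of the 42 against 5.97% of all genes. Mcm3, Mcm6 and Rb1 were lower in both, 3 of the 42 against 4.18%. Aurka read 129, 110 and 110 in titles 1 to 3 beside 175, 203 and 168 in titles 4 to 6, and 67.9, 69.3 and 84.2 in titles 7 to 9 beside 146, 132 and 160 in titles 10 to 12. Its log2 differences were 0.64 (SE 0.14, limma adjusted p = 0.00569) and 0.98 (SE 0.14, adjusted p = 0.000487), with no overlap in either pair. Mcm6 differed by -0.78 and -0.89 (SE 0.07 each, adjusted p = 1.13e-05 and 6.45e-06), so its 2 values lay close together. Ccnd1 differed by 0.60 and 0.78 (SE 0.12 each, adjusted p = 0.00435 and 0.000981).

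Rrm2 was the replication gene called higher, in contrast to its partner Rrm1. Its values were 326, 355 and 370 in titles 1 to 3, 409, 426 and 419 in titles 4 to 6, 237, 247 and 232 in titles 7 to 9, and 298, 268 and 294 in titles 10 to 12. The knockout run lay above the wildtype run in each pair without overlap, by 0.26 and 0.26 on the log2 scale (SE 0.08 each, limma adjusted p = 0.0441 and 0.043). The first call was lost on leaving out any library but wildtype replicates 2 and 3 and knockout replicates 4 and 5, and the second on leaving out any but wildtype replicates 1 to 3 and knockout replicate 5. Both were also lost without the filter, with quantile normalization, with the abundant genes left out and by DESeq2 (highest adjusted p = 0.474 and 0.435). Rrm1 differed by 0.03 and -0.06.

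The counts within pairs moved with single libraries. Without wildtype replicate 1 or 3 the genes called higher in titles 1 to 6 went from 15 to 9, and without knockout replicate 1 or 2 to 8, with 6 mitotic genes higher in each of these 4 fits. Of all genes, 1357 were higher there with every library, and 1359 and 1370 without wildtype replicate 1 or 3. Without knockout replicate 1 or 2 the count over all genes was 904 and 1000. In titles 1 to 6 the Cdc20 call did not hold on leaving out wildtype replicate 1, 3, 4 or 6 or knockout replicate 1, 2 or 5 (highest limma adjusted p = 0.143). Those of Kif20a and Mki67 were lost without wildtype replicate 1 or 3 or knockout replicate 3, and also without knockout replicate 1 for Kif20a and 2 for Mki67 (highest adjusted p = 0.0807 and 0.0723). The Mcm3 call there was lost without wildtype replicate 1 or knockout replicate 2 or 3 (highest adjusted p = 0.101), and that of Rb1 in titles 7 to 12 without wildtype replicate 6 (adjusted p = 0.0542). Without wildtype replicate 2, 15 of the 19 mitotic genes were higher in titles 1 to 6, and the genes called lower went from 3 to 5 in titles 1 to 6 and from 5 to 8 in titles 7 to 12. Over all genes that fit called 1400 higher and 1003 lower in titles 1 to 6. In titles 7 to 12 the count lower over all genes went from 959 to 1417. Without wildtype replicate 4 or 6 or knockout replicate 6, 3 genes were lower in titles 7 to 12. Of all genes, 501, 610 and 696 were lower in these fits, against 959 with every library. With the abundant genes left out, the split was 7 higher and 7 lower in titles 1 to 6, and 12 and 9 in titles 7 to 12, as the median of all genes moved to -0.17 and -0.16. Over all genes that split went from 1357 higher and 1001 lower to 712 and 2301, and from 1110 and 959 to 534 and 1831. Mcm7 was lower in titles 7 to 12 (-0.29, SE 0.09, limma adjusted p = 0.0415) but was lost on leaving out any library except wildtype replicate 2 or 5 (highest adjusted p = 0.166).

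The second question, raised by the 2 runs of each label, was how the later run differed from the earlier one. The mitotic genes that passed were lower in the later run under either label. In titles 7 to 9 against 1 to 3, 9 of 19 were lower and 0 higher (median -0.36), where 9.79% of all genes were called higher and 6.96% lower. In titles 10 to 12 against 4 to 6, 7 were lower and 0 higher (median -0.37), where 11.2% were called higher and 7.89% lower. Of the replication genes, 1 of 14 was lower in the first and 2 in the second, with 0 higher and medians of -0.08 and -0.10. For the counts of 0 higher, 1 mitotic gene (Bub1, called by DESeq2 and not by edgeR) and 2 replication genes (neither called by these tools) had an unadjusted p of 0.05 or less in the wildtype runs, and none did in the knockout runs. The 6 low-oxygen genes were all called higher in both comparisons (medians 2.29 and 2.29), so under each label the run with the lower mitotic sum was the one high in these 6. The mitotic sum was higher in titles 10 to 12 than in titles 1 to 3, runs that also differ in label. The part of the 6 genes in the run differences was not tested. Counted by overlap, 13 mitotic genes lay wholly lower and 1 wholly higher in titles 7 to 9, against 16.3% and 17.6% of all genes, and 11 and 1 in titles 10 to 12, against 19.9% and 19.9%. Of the cell type markers, 1 of 10 myotube and 1 of 6 myoblast markers were higher and 1 and 1 lower in the wildtype runs, and none of either passed in the knockout runs, while of 8 fibroblast markers 1 was lower in the wildtype runs and 1 higher in the knockout runs. The fibroblast sum was 48592 to 52996 in titles 1 to 3 and 49546 to 58985 in titles 7 to 9, and 43224 to 54311 in titles 4 to 6 and 65279 to 69854 in titles 10 to 12, the last pair without overlap. Of 5 endothelial markers 1 was higher in either comparison. The part of these markers in the run differences was not tested.

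Cdc20 (chromosome 4, 118432901 to 118437352, minus strand) moved most among the mitotic genes under either label. It read 136, 153 and 149 in titles 1 to 3 and 46.0, 57.3 and 46.4 in titles 7 to 9. In the libraries labelled knockout it read 223, 214 and 177 in titles 4 to 6 and 91.6, 103 and 122 in titles 10 to 12. The later run lay wholly below the earlier one under both labels, by 1.54 (value -1.54, SE 0.15, limma adjusted p = 1.18e-05) and 0.95 (value -0.95, SE 0.15, adjusted p = 0.000585) on the log2 scale.

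Ccnb1, the partner of CDK1 at entry into mitosis, read 189, 317 and 230 in titles 1 to 3 and 104, 105 and 94.2 in titles 7 to 9. It read 299, 328 and 294 in titles 4 to 6 and 148, 201 and 179 in titles 10 to 12. The ranges again did not overlap, and the differences were -1.24 and -0.81 (SE 0.17 each, limma adjusted p = 0.000208 and 0.00436). Plk1, the polo kinase of mitosis, differed by -1.02 and -0.56, Kif11, the kinesin that separates the spindle poles, by -0.68 and -0.56, and Kif20a, a kinesin of cytokinesis, by -0.87 and -0.72. All 5 of these mitotic genes, with Rrm2 and Ccnd1, were lower in both comparisons, 7 of the 42 against 3.82% of all genes. The Plk1 call in the knockout runs was lost without any 1 of the 6 knockout libraries (highest adjusted p = 0.128), and that of Kif11 there without knockout replicate 1 (adjusted p = 0.0558).

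Other mitotic genes passed in 1 comparison only, which does not show that the runs differed unequally: Ccna2 (cyclin A2), Aurka, Cenpe (a kinetochore kinesin) and Cenpf under the wildtype label, and Cdk1 and Bub1b under the knockout label. Cenpf, a protein of the outer centromere, read 228, 223 and 159 in titles 1 to 3 and 86.2, 98.3 and 104.9 in titles 7 to 9 (-1.05, SE 0.24, limma adjusted p = 0.00815). In titles 4 to 6 it read 186, 199 and 209, and in titles 10 to 12 it was scattered, at 131, 175 and 293 (-0.07, adjusted p = 0.879). Aurka differed by -0.65 and -0.31, Cenpe by -0.87 and -0.40 and Ccna2 by -0.40 and -0.15, the first of each called, and the Ccna2 call was lost without any wildtype library except replicate 3 (highest limma adjusted p = 0.0917). Bub1b, of the spindle checkpoint, differed by -0.27 and -0.63 and Cdk1, the kinase partner of cyclin B, by -0.27 and -0.56, the second of each called, and the Cdk1 call was lost without knockout replicate 2 or 4 (highest adjusted p = 0.0791). Top2a and Mki67, markers used to count dividing cells, differed by -0.36 and -0.24 in the wildtype runs and by -0.06 and 0.07 in the knockout runs, none called. Bub1, a checkpoint kinase, and Tpx2 were the mitotic genes above 0 in both: Bub1 differed by 0.51 and 0.34 (adjusted p = 0.0579 and 0.2) and Tpx2 by 0.07 and 0.03.

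**Figure D5:**
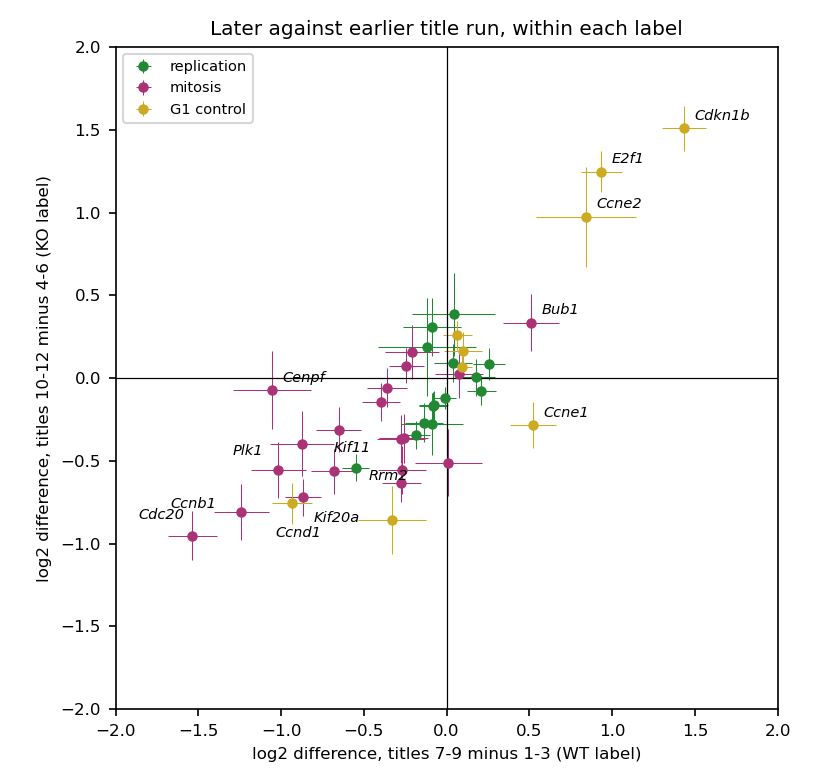
Log2 difference of the later against the earlier title run under the wildtype label (x axis, titles 7 to 9 against 1 to 3) and under the knockout label (y axis, titles 10 to 12 against 4 to 6), 1 point for each of the 42 genes with standard errors as bars, coloured by group. Cdc20, Ccnb1, Plk1, Kif11 and Kif20a lie at the lower left, Cdkn1b and E2f1 at the upper right, and most replication genes near 0.

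The 9 G1 control genes went both ways, 3 higher and 1 lower under the wildtype label and 3 higher and 2 lower under the knockout label. Of all genes, 9.79% were higher and 6.96% lower in the wildtype runs, and 11.2% and 7.89% in the knockout runs. The count of 1 lower was thus near its share. Cdkn1b, which encodes p27, the inhibitor that holds cyclin E and cyclin A kinases in check, read 370, 266 and 423 in titles 1 to 3 and 899, 922 and 999 in titles 7 to 9. In the libraries labelled knockout it read 297, 263 and 270 in titles 4 to 6 and 833, 772 and 761 in titles 10 to 12. Both later runs lay far above both earlier ones, by 1.43 and 1.51 on the log2 scale (SE 0.13 each, limma adjusted p = 9.1e-06 and 4.68e-06), which is 2.70-fold and 2.85-fold. E2f1, a transcription factor that drives replication genes, read 131, 104 and 129 in titles 1 to 3 and 237, 238 and 221 in titles 7 to 9, and 110, 92.1 and 112 in titles 4 to 6 and 240, 270 and 236 in titles 10 to 12. Its later runs also lay wholly above the earlier ones. Its differences were 0.93 and 1.25 (SE 0.12 each, adjusted p = 0.000165 and 1.14e-05). Cdkn1b and E2f1 were the 2 of 42 genes higher in both comparisons, against 7.19% of all genes.

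Ccnd1 fell in both. It read 668, 460 and 589 in titles 1 to 3 and 303, 287 and 296 in titles 7 to 9, and 859, 841 and 876 in titles 4 to 6 and 583, 477 and 470 in titles 10 to 12. Its differences were -0.93 and -0.76 (SE 0.12 each, limma adjusted p = 0.000154 and 0.000725), without overlap. Ccne2 differed by 0.84 and 0.98 (SE 0.30 each, adjusted p = 0.0772 and 0.0395), and the second call was lost on leaving out any library except wildtype replicates 1 to 3 and knockout replicate 5 (highest adjusted p = 0.158). Cdkn2c, which encodes the cyclin D kinase inhibitor p18, differed by -0.33 and -0.86, the second called (adjusted p = 0.0105). Ccnd2, Ccnd3 and Rb1, the 3 G1 genes that differed between the labels, did not pass in either run comparison (0.07 and 0.26 for Ccnd2, 0.09 and 0.07 for Ccnd3, 0.10 and 0.16 for Rb1).

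Among the replication genes, Rrm2 fell in both (-0.55 and -0.54, SE 0.08 each, limma adjusted p = 0.000431 and 0.000406), and Mcm4 in the knockout runs (-0.34, SE 0.09, adjusted p = 0.0129, lost without knockout replicate 1 or 6). Mcm6 differed by -0.01 and -0.12 and Mcm3 by 0.18 and 0.0049, so the genes that separated the labels did not pass between the runs. Counted over the 42 genes, 3 were higher and 11 lower in either comparison. With the abundant genes left out the split in the knockout runs was 2 and 16, and the calls over all genes went from 1229 higher and 874 lower to 920 and 1457 in the wildtype runs, and from 1401 and 990 to 1140 and 1534 in the knockout runs. Without wildtype replicate 3, 5 of the 42 were higher in the wildtype runs, where 1308 of all genes were, against 1229 with every library.

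Whether the run difference itself differed between the labels was tested with the interaction term of the same fit. By limma 0 of the 42 genes passed, and 1 of all 12553 genes (0.00797%) did, the mitochondrial gene mt-Co2, which read 0 in titles 1 to 3. At an unadjusted p of 0.05 or less there were 4 of the 42 (Ccne1, Cenpf, Cdc20 and Mcm7) and 1070 of all genes. Ccne1 had the lowest p. It read 518, 355 and 500 in titles 1 to 3 and 677, 654 and 616 in titles 7 to 9, but 544, 549 and 484 in titles 4 to 6 and 509, 409 and 384 in titles 10 to 12, so it rose under one label and its values were lower under the other (0.52 and -0.28). The interaction was -0.81 (SE 0.20, adjusted p = 0.439), and DESeq2 on the reads called it (adjusted p = 0.0434) where edgeR did not. The rise in the wildtype runs (adjusted p = 0.0218) was itself lost without wildtype replicate 4 or 5 (highest adjusted p = 0.0784).

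Further genes of each stage were counted the same way. Of 47 other mitotic genes, 9 were higher and 0 lower under the knockout label (median 0.41), against 10.2% and 9.07% of all genes, led in adjusted p by Anln, the cytokinesis scaffold anillin (0.43), Ube2c, a ubiquitin enzyme of anaphase (0.66), and Prc1, which bundles midzone microtubules (0.67). In titles 7 to 9 against 1 to 3, 24 of the 47 were lower and 0 higher (median -0.47), against 6.96% and 9.79% of all genes. In titles 10 to 12 against 4 to 6, 17 were lower and 0 higher (median -0.37), against 7.89% and 11.2%. For these 3 counts of 0, no gene of the list had an unadjusted p of 0.05 or less in that direction and edgeR and DESeq2 called none. Prc1 read 327, 369 and 338 in titles 1 to 3, 485, 519 and 505 in titles 4 to 6, 231, 198 and 216 in titles 7 to 9, and 347, 384 and 383 in titles 10 to 12, and of these runs titles 1 to 3 and 10 to 12 alone overlapped.

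Of 30 other replication genes, 29 were tested. Under the knockout label 2 were higher and 2 lower (median -0.04), shares below the 10.2% and 9.07% of all genes. Among them were Fen1, the flap endonuclease of the lagging strand (0.67, limma adjusted p = 0.0048), Orc6, of the origin recognition complex (-0.54, adjusted p = 0.00595), and Pold1, the catalytic subunit of DNA polymerase delta (-0.63, adjusted p = 0.0167). In the wildtype runs 1 was higher and 2 lower, where 9.79% and 6.96% of all genes were, and in the knockout runs 1 and 1, where 11.2% and 7.89% were. Dbf4, the partner of the kinase that fires origins, was lower in both (-1.03 and -0.99), and Prim2, a primase subunit, was higher in both (0.73 and 0.58).

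Of 22 other G1 and E2F genes, 3 were higher and 3 lower under the knockout label (median -0.03), shares not far from the 10.2% and 9.07% of all genes. Cdkn1c, which encodes the kinase inhibitor p57 of differentiating muscle, stood at 158, 261 and 373 (lowest, median and highest) under the wildtype label and at 486, 547 and 729 under the knockout label, 2.30-fold higher without overlap (limma adjusted p = 0.00219). Rbl1, the RB relative p107, known to be abundant in cycling cells, stood at 156, 197 and 283 and at 86.8, 99.9 and 147, lower by 0.91 on the log2 scale (value -0.91, adjusted p = 0.000877). Tfdp2, a partner of the E2F factors, was lower by 0.59 (value -0.59, adjusted p = 0.00327). Cdkn1c was also higher in both later runs (1.05 and 0.41).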

How the data were processed

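RNA was read from 12 libraries of stranded total RNA, 6 per label. The submitters' processing notes list Trimmomatic 0.33, STAR 2.5.2, RSEM 1.3.3, DESeq2 and the mm10 build, without order or settings; an annotation was not given in these sources. The values the authors deposited are signal on the scale of DESeq2, that is, whole counts divided by 1 size factor per library. All values (100%) gave whole reads within 1e-06, so reads could be recovered. GENCODE M21 named 19970 of 20201 identifiers.

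Genes with a mean of at least 10 (12553; 7648 fell below) were tested as log2(value + 1) with limma 3.58.1 in R 4.3.3, two-sided, with Benjamini-Hochberg adjustment over all genes and a call at an adjusted p of 0.05 or less. Fold changes are on that scale, on which low genes appear to change less than they do. The labels were compared in a fit of 2 groups, the runs in a fit of 4 that shares 1 spread. edgeR 4.0.16 on the recovered reads called 1306 genes higher and 1105 lower between the labels. DESeq2 1.42.0, other pseudocounts, filters and scalings, library weights, the run pair as a term and leaving out each library were further alternatives. No 2 libraries agreed within sampling noise (smallest chi-square per degree of freedom 5.04). The steps were tested on simulated data.

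The text names members called between the labels, the 2 with the largest difference and the most abundant of each list, the 3 largest called per run comparison, and up to 3 further genes per list by adjusted p; others were named after their values were seen. Members, lists and markers were chosen with earlier results of these data known.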

Additional observations from a re-analysis of the deposited data

Results flagged for a closer look

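Within each label, the 6 libraries of each of the 42 genes were searched for a single library far from the other 5, with a gap to its nearest neighbour, over the whole range, above Dixon's critical value for groups of this size. Of 84 groups 10 met this, and all 10 were libraries above the rest. The critical value marks about 1 group in 20 by chance where the 6 values are drawn alike and the groups are independent. Each group here joins 2 runs of titles, which differed for many of the genes, so that rate cannot be applied to the 10. Wildtype replicate 2, which stood apart in its share of genes at 0, held 6 of them. There Top2a read 1068.6 against 623 to 775 in the other libraries of the label, Mki67 861.07 against 562 to 661, and Cenpe 396.46 against 123 to 225. Of the replication genes, Mcm5 read 373.23 against 262 to 303 in that library and Cdc45 116.15 against 71.9 to 87.8, and the G1 gene Cdkn2c read 164.16 against 78.2 to 105. The other 4 were Mcm2 in wildtype replicate 1 (427.88 against 359 to 381), Cdt1 and Bub1 in wildtype replicate 6 (173.44 against 153 to 161, and 182 against 87.2 to 123), and Cdc6 in knockout replicate 5 (54.076 against 23.8 to 34.6).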

How the results depend on the processing

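No paired analysis was possible because the replicate numbers follow the order of the samples and tie no library of one label to one of the other. No called difference among the 42 genes reversed under any alternative run. Of the genes called, 8 of 13 between the labels, 12 of 14 and 9 of 14 between the wildtype and the knockout runs, and 9 of 18 and 13 of 20 between the labels within titles 1 to 6 and 7 to 12 were called in every alternative run. With the abundant genes left out, the genes higher between the labels went from 9 to 5 and, in titles 1 to 6, from 15 to 7, while those lower went from 3 to 7 in titles 1 to 6 and from 5 to 9 in titles 7 to 12, as the median of all genes shifted downward. With the run pair as a term 21 were higher and 3785 of all genes were called. With library weights, estimated without a term for the runs, 21 were higher and 3381 of all genes were called. DESeq2 called 5 lower in titles 1 to 6. For the interaction, the 1 gene called among all genes became 0 with a pseudocount of 10, quantile normalization or edgeR, and 31 with DESeq2, 1 of them among the 42 and lower. Leaving out 1 library at a time, the genes higher ranged from 2 to 5 between the wildtype runs and from 8 to 18 in titles 1 to 6. The counts higher over all genes ranged from 899 to 1323 and from 904 to 1400. Among the 42 genes the counts lower moved as well. They ranged from 2 to 5 in titles 1 to 6, where 668 to 1017 of all genes were lower. In titles 7 to 12 they ranged from 3 to 8, where all genes called ranged from 1190 to 3082. The interaction called 1 to 4 of all genes. The cause of these changes was not tested beyond the fewer libraries in each fit. Low members such as Cdc6 and Gins2 had standard errors of 0.20 and 0.19 between the labels, against 0.06 for Mcm6, so a difference as small as that of Cdt1 was not detectable for them.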
